A study of Homo sapiens with 6 samples.

Results

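The syndecans and glypicans are the 2 families of heparan sulfate proteoglycans that sit in the cell membrane, and 10 genes encode them, SDC1 to SDC4 and GPC1 to GPC6. Their mRNA was followed in SUM159 cells, an established line of human breast cancer that stands for the mesenchymal stem-like (MSL) subtype of triple negative breast cancer. A member was taken from transcript clusters (the groups of array probes that are summarized into 1 value) annotated with its symbol alone, and where there were several, from the one with the highest mean. This gave 9 of the 10 genes, 3 syndecans and 6 glypicans, out of 18276 genes measured. SDC4 was in no such cluster, since the cluster that names it also names ROS1, so it has no value here. RNA came from 3 TβRIII-KD samples, which stably carry an shRNA against TGFBR3 delivered by a lentivirus, and from 3 control samples, and all 6 were labelled as day 6 of three-dimensional matrigel culture. Each was measured on 1 Affymetrix Human Gene array. Whether the 3 samples of a group were grown separately is not stated in the sources used here, so each p-value reflects no more than the variation among these samples, and that variation may be technical. Each group is 1 stably transduced population, so the loss of TβRIII cannot be told apart from whatever else differs between the 2 populations. In RNA from whole cultures, fewer expressing cells and less RNA per cell cannot be told apart.

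Syndecans cross the membrane and carry a short cytoplasmic tail that binds PDZ proteins, while glypicans are held in the outer leaflet of the membrane by a lipid anchor. Both carry heparan sulfate, a long sulfated sugar chain that binds growth factors, chemokines and matrix proteins and presents them to signaling receptors. TβRIII, the product of TGFBR3, is itself a membrane proteoglycan of this kind: it binds TGF-β ligands through its core protein and can carry heparan sulfate and chondroitin sulfate chains. Syndecan-1 is best known from epithelia and plasma cells, syndecan-2 from mesenchymal cells and syndecan-3 from the nervous system.

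No syndecan or glypican passed the cutoff between TβRIII-KD and control cultures. The genes with the smallest p among them were 2 syndecans with opposite signs, SDC1, which was 1.37-fold higher in TβRIII-KD, and SDC3, which was 1.27-fold higher in control. The 6 glypicans had log2 fold changes between -0.18 for GPC6 and 0.18 for GPC4. The cutoff was an adjusted p under 0.05 (limma, a linear model with moderated variances, Benjamini-Hochberg adjustment over all transcript clusters) together with an absolute log2 fold change over 0.5. It was passed by 0 of the 9 members, against 2.26% of all 22148 transcript clusters (0.777% higher and 1.49% lower in TβRIII-KD). An unadjusted p under 0.05 was reached by 2 members, SDC1 and SDC3, against 15.2% of all transcript clusters, and by 2 members in the methods' t-test as well. The 2 groups of arrays did not overlap for 3 members, against 20.7% of all transcript clusters. In SDC1 all TβRIII-KD arrays lay above the control arrays, and in SDC3 and GPC6 all lay below them. Of the 9 members, 5 had a positive log2 fold change, and their median was 0.04, beside a median of 0.01 over all transcript clusters.

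**Figure D1:**
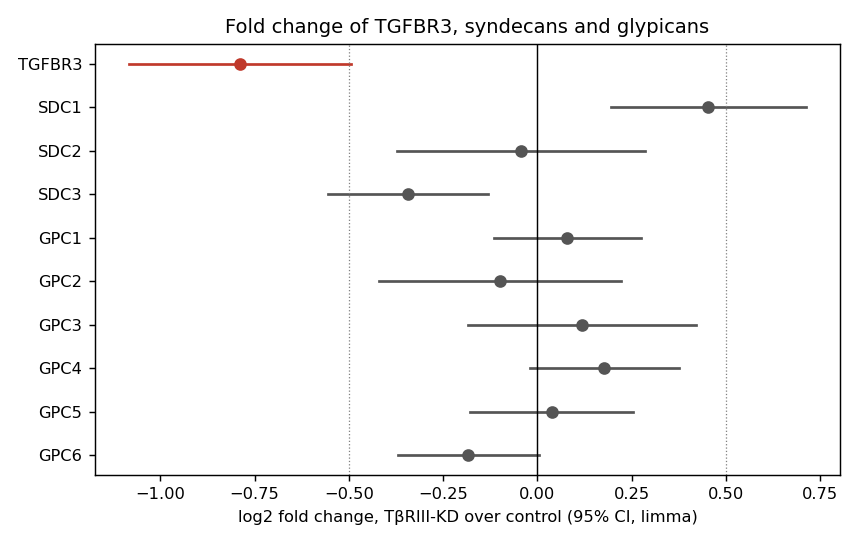
Difference in log2 signal, TβRIII-KD minus control (x axis), for TGFBR3, 3 syndecans and 6 glypicans, each drawn as a dot with a bar for the 95% confidence interval that limma gave from 3 arrays per group, dotted lines at the fold limit of 0.5 either way, and red for the gene past the cutoff. TGFBR3 lies lowest at -0.79, SDC1 highest at 0.45, and the intervals of SDC1 and SDC3 lie on opposite sides of 0.

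TGFBR3, the target of the shRNA, had log2 signals of 9.72, 10.01 and 10.16 on the TβRIII-KD arrays, against 10.81, 10.89 and 10.56 on the control arrays. All TβRIII-KD arrays lay below all control arrays. This is a log2 fold change of -0.79 (95% confidence interval -1.08 to -0.49, adjusted p = 0.0145 from limma). The target mRNA fell, and its signal in TβRIII-KD stayed above the range of the olfactory receptors described below. The adjusted p was above 0.05 without TβRIII-KD 2 (0.0625), control 1 (0.0770) or control 2 (0.0554). Signals are the log2 values of RMA, which corrects background, equalizes the arrays and combines the probes of a cluster. Medians of the 6 arrays differed by at most 0.04. Correlations across transcript clusters were 0.992 to 0.994 within TβRIII-KD and 0.995 to 0.996 within control, and TβRIII-KD 3 stood apart on the second principal component (21.9% of the variance). The 95th percentile of those olfactory receptors was 6.79, and 7 of 7 mesenchymal breast cancer markers lay above it. So did 5 of 9 luminal, 2 of 5 endothelial and 0 of 4 measured leukocyte markers. CDH1, EPCAM, ESR1 and PGR, the other luminal markers on the list, were under that percentile. The summed linear signal of the luminal markers was 5421 to 6163 on TβRIII-KD arrays and 6455 to 7690 on control arrays, and that of the endothelial markers was 579 to 764 on TβRIII-KD arrays and 1103 to 1432 on control arrays. The luminal sum was carried by the keratins KRT8 (log2 fold change -0.36, adjusted p = 0.0871 from limma) and KRT18 (-0.38, adjusted p = 0.217), while 6 of the 9 luminal markers had a positive log2 fold change and GATA3, a luminal transcription factor, rose past the cutoff (0.68, adjusted p = 0.00858). The endothelial difference was carried by KDR, a VEGF receptor, while CDH5, VWF and TEK lay in the olfactory range. The part of these markers in the results was not tested.

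Promoter windows show the sequence context of the genes whose arrays did not overlap between the groups, with TGFBR3 as the target. Each is the 120 bases just before an annotated start in RefSeq (build GRCh38.p14), written 5′ to 3′ on the strand of the gene, and SDC1 has 2 annotated starts. Capitals mark each GGGCGG (the GC box, the core of the Sp1 motif) and each CAGAC (the SMAD-binding CAGA box) on either strand.
SDC1, chr2:20225476-20225595, minus strand: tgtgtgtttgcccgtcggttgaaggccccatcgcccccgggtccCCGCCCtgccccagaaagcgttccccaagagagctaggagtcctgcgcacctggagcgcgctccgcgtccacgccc
SDC1, second start, chr2:20225131-20225250, minus strand: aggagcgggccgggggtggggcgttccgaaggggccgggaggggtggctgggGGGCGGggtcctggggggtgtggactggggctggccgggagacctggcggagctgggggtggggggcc
SDC3, chr1:30908759-30908878, minus strand: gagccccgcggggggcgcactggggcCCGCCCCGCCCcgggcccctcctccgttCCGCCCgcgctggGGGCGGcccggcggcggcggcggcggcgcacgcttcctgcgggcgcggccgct
GPC6, chr13:93226687-93226806, plus strand: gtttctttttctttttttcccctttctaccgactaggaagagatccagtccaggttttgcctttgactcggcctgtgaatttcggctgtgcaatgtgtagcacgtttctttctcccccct
TGFBR3, chr1:91886152-91886271, minus strand: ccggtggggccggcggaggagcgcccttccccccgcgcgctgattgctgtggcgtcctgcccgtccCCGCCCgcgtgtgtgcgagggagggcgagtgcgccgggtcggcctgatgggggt

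The sequence table held 8 of the 10 members in 9 windows, all but SDC2 and GPC3. Of these windows, 8 held a GC box, and a GC box was present in 34.0% of 35116 promoter windows of the same length. The exception was GPC6, whose window was 46.7% G and C, where the SDC3 window was 89.2%. SDC3 had 4 matches, of which 2 share a base, and each SDC1 window and TGFBR3 had 1. CAGAC was found in 0 of the 9 windows and not in that of TGFBR3, against 18.8% of all windows, and TATAAA in 0 of the 9, against 5.6% of all windows. These matches describe letters in a short window and are not sites shown to be bound in these cells.

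SDC1, which encodes syndecan-1, had log2 signals of 8.35, 8.77 and 8.75 on the TβRIII-KD arrays, against 8.16, 8.17 and 8.18 on the control arrays. Every TβRIII-KD array was above every control array, and TβRIII-KD 1 lay nearest to the controls. The SD was 0.24 over the TβRIII-KD arrays and 0.0079 over the control arrays. The limma fit takes 1 variance for both groups, so the interval below rests on an assumption that these SDs do not meet. The difference was 0.45 on the log2 scale (95% confidence interval 0.19 to 0.71), with an adjusted p = 0.0763 from limma, so SDC1 stayed outside the cutoff on both the adjusted p and the fold limit. An exact permutation test of the 6 arrays gave a two-sided p = 0.1, the smallest that 3 against 3 allow. Without TβRIII-KD 1 the log2 fold change was 0.59 (adjusted p = 0.0116 from limma), which passed the cutoff. Without any other single array it was 0.38 to 0.46, with an adjusted p of 0.136 to 0.236, and over all the alternatives tried the adjusted p lay between 0.0116 and 0.308.

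SDC3, which encodes syndecan-3, had the opposite sign. Its log2 signals were 8.91, 9.02 and 9.23 on the TβRIII-KD arrays, against 9.40, 9.45 and 9.35 on the control arrays. Every TβRIII-KD array was below every control array, and TβRIII-KD 3 came nearest to the controls. The difference was -0.34 on the log2 scale (95% confidence interval -0.56 to -0.13), with an adjusted p = 0.0980 from limma. The exact permutation test again gave p = 0.1. Without TβRIII-KD 3, the array that stood apart on the second principal component, the log2 fold change was -0.43 and the adjusted p 0.0289 from limma, still inside the fold limit. Over all the alternatives the adjusted p lay between 0.0289 and 0.287. TβRIII-KD 1 had the lowest signal of the 6 arrays for both TGFBR3 and SDC3, and among the TβRIII-KD arrays the lowest for SDC1.

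SDC2, which encodes syndecan-2, showed no separation of the groups. Its log2 signals were 8.53, 8.99 and 8.53 on the TβRIII-KD arrays, against 8.76, 8.89 and 8.53 on the control arrays. The highest value of the 6 was on a TβRIII-KD array, and a pair of TβRIII-KD arrays was level with the lowest control. TβRIII-KD minus control was -0.04 on the log2 scale (95% confidence interval -0.37 to 0.29, adjusted p = 0.926 from limma), so changes beyond 0.37 in size lay outside the interval. Its sign turned when TβRIII-KD 1, TβRIII-KD 3 or control 2 was left out.

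**Figure D2:**
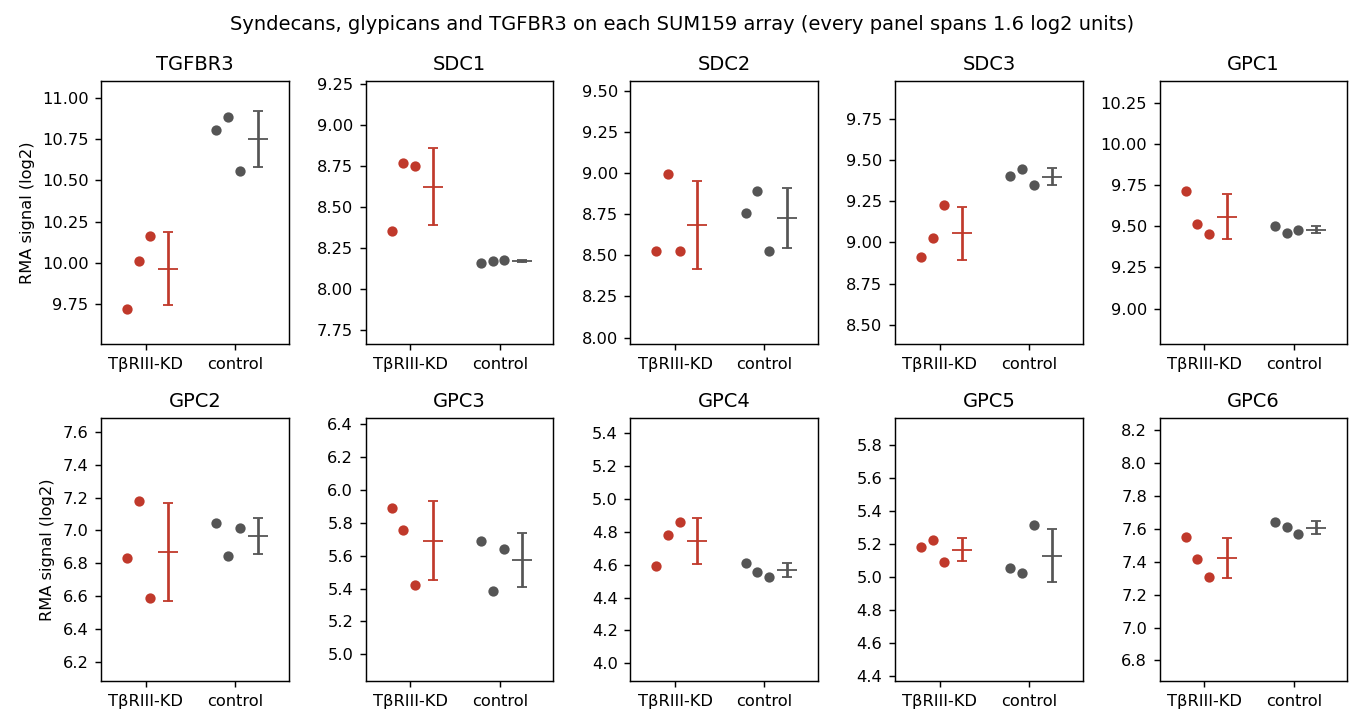
RMA signal (log2, y axis) of TGFBR3, 3 syndecans and 6 glypicans on each array, TβRIII-KD in red and control in grey, with 1 dot per array and, at the right of each group, its mean with a bar of 1 SD each way (n = 3). The groups do not overlap for TGFBR3, SDC1, SDC3 and GPC6, and for SDC1 the control arrays lie between 8.16 and 8.18 while the TβRIII-KD arrays spread between 8.35 and 8.77.

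Among the glypicans, GPC6 had the smallest p, and its arrays did not overlap between the groups. GPC6 encodes a glypican of mesenchymal tissues in which loss-of-function variants cause a skeletal dysplasia. Its log2 signals were 7.55, 7.42 and 7.31 on the TβRIII-KD arrays, against 7.64, 7.61 and 7.57 on the control arrays. The gap between the groups was narrow, 7.55 on TβRIII-KD 1 against 7.57 on control 3. It had a log2 fold change of -0.18 (95% confidence interval -0.37 to 0.0041, adjusted p = 0.340 from limma). Leaving out 1 array at a time gave -0.24 to -0.12, negative each time.

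GPC1 encodes glypican-1, a glypican of many epithelial cancers and of the nervous system. Its log2 signals were 9.71, 9.51 and 9.45 on the TβRIII-KD arrays, against 9.50, 9.46 and 9.48 on the control arrays. TβRIII-KD 1 stood clear of the other 5 arrays, which lay together. This gave a log2 fold change of 0.08 (95% confidence interval -0.11 to 0.27, adjusted p = 0.725 from limma), and without TβRIII-KD 1 it was 0.0022.

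GPC4 encodes glypican-4, which takes part in Wnt signaling in development. Its log2 signals were 4.59, 4.78 and 4.86 on the TβRIII-KD arrays, against 4.61, 4.56 and 4.53 on the control arrays. TβRIII-KD 1 fell within the control range and the other two TβRIII-KD arrays lay above it. The log2 fold change was 0.18 (95% confidence interval -0.02 to 0.37, adjusted p = 0.381 from limma).

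GPC3 encodes glypican-3, an inhibitor of hedgehog signaling whose loss causes an overgrowth syndrome. Its log2 signals were 5.89, 5.76 and 5.42 on the TβRIII-KD arrays, against 5.69, 5.39 and 5.64 on the control arrays, and the groups overlapped. The log2 fold change was 0.12 (95% confidence interval -0.18 to 0.42, adjusted p = 0.743 from limma). GPC5, whose product is related in sequence to glypican-3, had log2 signals of 5.18, 5.23 and 5.09 on the TβRIII-KD arrays, against 5.05, 5.02 and 5.31 on the control arrays. Here control 3 was the highest of the 6. The log2 fold change was 0.04 (95% confidence interval -0.18 to 0.25, adjusted p = 0.901 from limma).

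GPC2 encodes glypican-2, a glypican of developing neurons and neuroblastoma. It was the only member with a pair of clusters of its own, and they disagreed in sign. The brighter one had log2 signals of 6.83, 7.18 and 6.59 on the TβRIII-KD arrays, against 7.04, 6.84 and 7.01 on the control arrays, with a log2 fold change of -0.10 (95% confidence interval -0.42 to 0.22, adjusted p = 0.806 from limma). The dimmer one had log2 signals of 5.33, 5.53 and 5.65 on the TβRIII-KD arrays, against 5.35, 5.06 and 5.38 on the control arrays, with a log2 fold change of 0.24 (adjusted p = 0.369 from limma). In both clusters the groups overlapped. For SDC2 and the 6 glypicans (GPC2 by its brighter cluster) the interval lay inside the fold limit on both sides, while the intervals of SDC1 and SDC3 each reached past it. The interval of the dimmer GPC2 cluster was -0.02 to 0.502, just past the limit. GPC3, GPC4 and GPC5 had signals in the range of the olfactory receptors described below, so their intervals bound a change in signal and may say little about mRNA.

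The deposited values hold no detection call, so the signals were set beside those of 355 clusters of olfactory receptor genes, which encode odorant receptors and which a breast cell line is not known to use. Probes differ in brightness, so this describes where a signal lies and ranks no gene by RNA amount. The olfactory clusters had a median log2 signal of 5.26 and a 95th percentile of 6.79, and the median of all transcript clusters was 7.70. SDC1, SDC2, SDC3, GPC1 and GPC6 lay above that percentile, with means of 8.40, 8.70, 9.23, 9.52 and 7.52. GPC2 lay just above it, at 6.92. GPC3 (5.63), GPC4 (4.65) and GPC5 (5.15) lay inside the olfactory range, so for these 3 glypicans the signal was not separable from that of genes not known to be used.

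**Figure D3:**
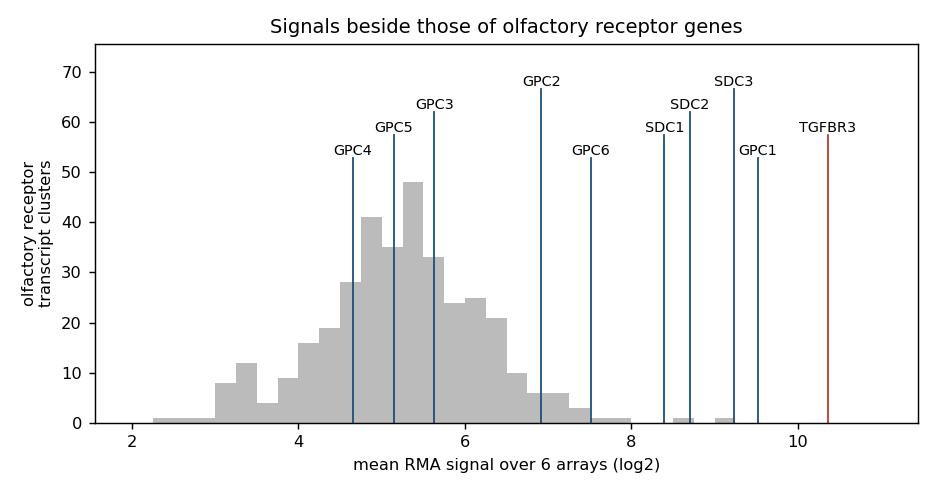
Mean RMA signal over 6 arrays (log2, x axis) of 355 olfactory receptor transcript clusters (grey bars, number of clusters on the y axis), with lines for the members and TGFBR3. GPC4, GPC5 and GPC3 stand inside the grey bars, GPC2 and GPC6 at their upper edge, and the 3 syndecans and GPC1 beyond nearly all of them.

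**Figure D4:**
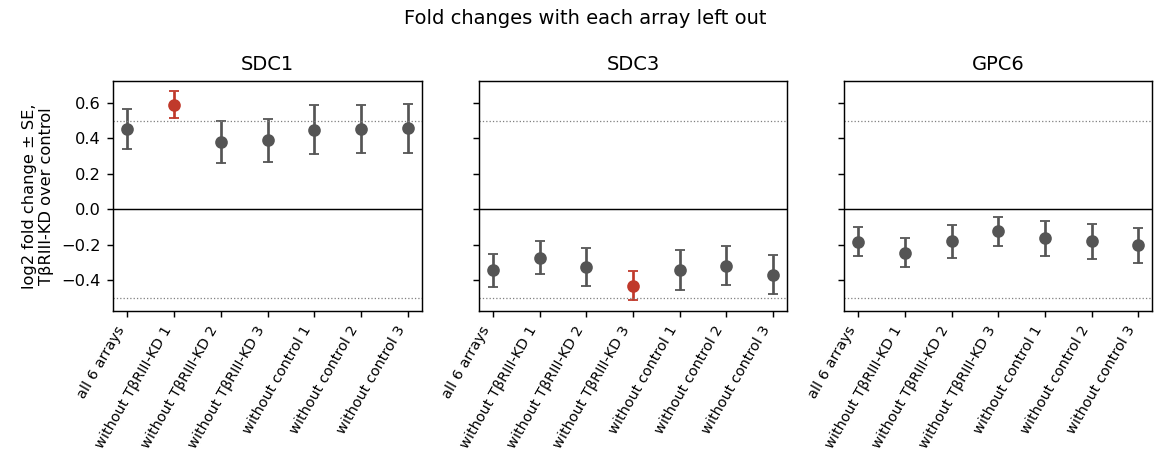
TβRIII-KD minus control in log2 signal, with bars of 1 SE (y axis), for SDC1, SDC3 and GPC6 with all 6 arrays and with each array left out (x axis), red where the adjusted p from limma was under 0.05, dotted lines at the fold limit. No sign changes, and SDC1 without TβRIII-KD 1 (0.59) is the single point past both the fold limit and the adjusted p.

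The genes beside the members on the chromosome give further context. In the RefSeq order SDC1 lies between LAPTM4A, a lysosomal membrane protein gene, and PUM2, which encodes an RNA-binding repressor. PUM2 had log2 signals of 10.35, 10.22 and 10.21 on the TβRIII-KD arrays, against 9.97, 10.03 and 9.95 on the control arrays, a log2 fold change of 0.28 (adjusted p = 0.0912 from limma). LAPTM4A had 12.61, 12.58 and 12.59 on the TβRIII-KD arrays, against 12.43, 12.39 and 12.43 on the control arrays, a log2 fold change of 0.18 (adjusted p = 0.227 from limma). In both neighbours every TβRIII-KD array lay above every control array, and neither passed the cutoff. The same held for RBPJL beside SDC4 and for CPQ beside SDC2, whose own groups overlapped. In all, 4 of the 14 measured neighbours of the members and TGFBR3 had groups that did not overlap, each with TβRIII-KD above control. The share over all transcript clusters was 20.7%, in either direction. Whether SDC1 and its neighbours changed together was not tested. Beside SDC3, the measured neighbour LAPTM5 had a log2 fold change of 0.15 (95% confidence interval -0.25 to 0.55), opposite in sign to SDC3. GPC3 and GPC4 adjoin on the X chromosome, with log2 fold changes of 0.12 and 0.18, and GPC5 and GPC6 adjoin on chromosome 13, with 0.04 and -0.18.

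The genes that build, edit and read heparan sulfate were counted at the same cutoff, from lists of textbook members. Beside each count stand the shares over all transcript clusters, 0.777% higher and 1.49% lower in TβRIII-KD. Beside each list's median stands that of all transcript clusters, 0.01. Of 26 measured genes of chain synthesis, from the xylosyltransferases to the sulfotransferases, 1 was higher and 0 were lower in TβRIII-KD. The one that rose was NDST4, an N-deacetylase and N-sulfotransferase, with log2 signals of 5.55, 5.68 and 5.83 on the TβRIII-KD arrays against 4.75, 4.77 and 4.74 on the control arrays (log2 fold change 0.93, adjusted p = 0.00108 from limma). These signals lie inside the olfactory range. The median log2 fold change of the list was 0.02, and its members other than NDST4 lay between -0.21 and 0.34. The polymerase genes EXT1 and EXT2, chosen after their values were seen, showed log2 fold changes of -0.16 (adjusted p = 0.348) and 0.04 (adjusted p = 0.840 from limma).

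Of 10 measured genes of heparan sulfate editing and degradation, 0 were higher and 1 was lower. It was SULF2, an extracellular sulfatase that removes sulfate from chains at the cell surface, with log2 signals of 7.38, 7.29 and 7.64 on the TβRIII-KD arrays against 9.99, 10.36 and 10.27 on the control arrays. SULF2 fell by 2.77 on the log2 scale (adjusted p = 3.83e-05 from limma). The other 9 genes, including heparanase and the lysosomal enzymes, had log2 fold changes between -0.18 and 0.23, and the list's median was 0.03. The related sulfatase SULF1, chosen after its values were seen, had 7.87, 8.06 and 7.75 on the TβRIII-KD arrays and 7.65, 7.80 and 7.83 on the control arrays (log2 fold change 0.14, adjusted p = 0.582 from limma).

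Of 9 matrix and other heparan sulfate proteoglycans, 1 was higher and 0 were lower. SPOCK3, a secreted testican of the matrix, had log2 signals of 6.64, 6.77 and 6.73 on the TβRIII-KD arrays against 5.73, 6.05 and 5.71 on the control arrays, and rose by 0.88 on the log2 scale (adjusted p = 0.00323 from limma). Its groups were well apart, though all 6 signals lay under the olfactory 95th percentile. The other genes of the list had log2 fold changes between -0.54 for SPOCK1, a related testican (adjusted p = 0.104), and 0.43 for HSPG2 (adjusted p = 0.0526 from limma). Both were chosen after their values were seen, and in both the groups of arrays did not overlap. The list's median was 0.03, and the count was 2 without TβRIII-KD 1 or TβRIII-KD 3.

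Of 11 genes that shed or cleave syndecans and glypicans (metalloproteinases, their inhibitor TIMP3, FURIN and the secreted hydrolase NOTUM), 0 passed the cutoff. The smallest p belonged to ADAM17, a sheddase of syndecan-1 and syndecan-4, with log2 signals of 9.40, 9.35 and 9.49 on the TβRIII-KD arrays against 9.63, 9.72 and 9.76 on the control arrays. Its log2 fold change was -0.29 (adjusted p = 0.0866 from limma). Of the 2 clusters of MMP16, a membrane-type metalloproteinase, the brighter one did not pass (log2 fold change 0.54, adjusted p = 0.177), while the dimmer one, chosen after its values were seen, did (log2 fold change 0.82, adjusted p = 0.0316 from limma). The count was 1 without TβRIII-KD 3, and the median of the list was 0.01.

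Of 8 measured partners of the syndecan tail, out of 13 on the list, 0 passed. The smallest p belonged to ACTN1, an actin cross-linker, with 11.75, 11.62 and 11.59 on the TβRIII-KD arrays against 11.93, 11.98 and 12.00 on the control arrays (log2 fold change -0.31, adjusted p = 0.0637 from limma). SDCBP, which encodes syntenin, the best known PDZ partner of the tail, was chosen after its values were seen and differed by 0.05 on the log2 scale (adjusted p = 0.878 from limma). Of 9 integrins and other receptors that work with syndecans, 1 was higher, ITGA2, the collagen receptor subunit (log2 fold change 1.02, adjusted p = 0.00311 from limma), and 0 were lower. This count was 2 without TβRIII-KD 3. The medians of the tail partners and the receptors were 0.08 and 0.07.

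Hedgehog proteins are among the ligands that glypicans bind. Of 14 measured genes of this pathway, 0 passed the cutoff. GLI3, a transcription factor at its end, had log2 signals of 8.91, 9.04 and 9.02 on the TβRIII-KD arrays against 8.67, 8.68 and 8.56 on the control arrays. Its log2 fold change was 0.35 (adjusted p = 0.0446 from limma), under the fold limit, and its adjusted p was 0.0605 to 0.177 without any 1 array. PTCH1, the receptor and a target gene of the pathway, was chosen after its values were seen and differed by -0.26 on the log2 scale (adjusted p = 0.0950 from limma). Signs on the list were mixed, and 9 of the 14 genes had a positive log2 fold change. Among these were HHIP (0.37, adjusted p = 0.245) and GLI1 (0.22, adjusted p = 0.491 from limma), also chosen after their values were seen. The mean signals of HHIP and GLI1 lay under the olfactory 95th percentile. The list's median was 0.12, its range -0.37 to 0.37, and its count 1 without TβRIII-KD 3.

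Of 17 measured heparin-binding growth factors and chemokines, 0 were higher and 1 was lower. CCL5, a chemokine that binds heparan sulfate, had log2 signals of 9.09, 8.87 and 9.35 on the TβRIII-KD arrays against 9.69, 9.74 and 9.84 on the control arrays. It fell by 0.65 on the log2 scale (adjusted p = 0.0234 from limma), and lost the call without any 1 array except TβRIII-KD 3 (adjusted p 0.0621 to 0.0961). The count was 2 without TβRIII-KD 3 and 0 without TβRIII-KD 2 or any 1 control. VEGFA and FGF2, classic heparin-binding factors chosen after their values were seen, had log2 fold changes of -0.81 (adjusted p = 0.0533) and 0.23 (adjusted p = 0.334 from limma). The list's median was -0.02.

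**Figure D5:**
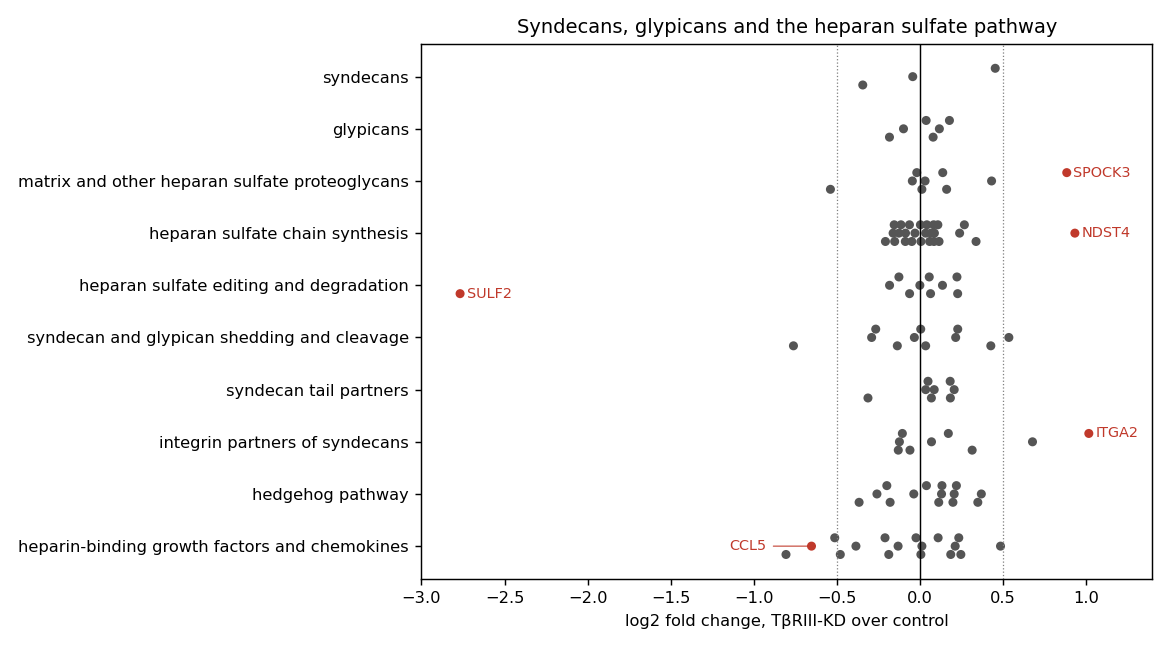
TβRIII-KD minus control in log2 signal (x axis) for each measured gene of 10 lists (y axis), the syndecans and glypicans on top, with 1 dot per gene, red and a name for genes past the cutoff and dotted lines at the fold limit. All syndecans and glypicans lie between the dotted lines, and SULF2, at -2.77, lies farthest from 0.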

How the data were processed

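The deposited values are log2 signals. The authors made them in R 3.0.1 using oligo, whose RMA subtracts background, applies quantile normalization across arrays and summarizes probes per transcript cluster. No unit was changed and no cluster was removed. Group differences were fitted using limma 3.58.1 under R 4.3.3 (moderation without trend, two-sided, group as the only term), with Benjamini-Hochberg adjustment across the whole table of 22148 transcript clusters. This fit was tested on simulated data with independent noise and known changes, all larger than those of SDC1 and SDC3. The simulation covers neither changes of their size nor effects shared across an array. Of these clusters, 19129 carry 1 gene symbol, 1735 several and 1284 none. For single genes an exact two-sided permutation test over the 6 arrays was added. The number of arrays limits the precision. The members and the gene lists were chosen with earlier results of these data known, so their counts are descriptions and no list was tested as a set. Named are all members, TGFBR3, and from each pathway list the genes past the cutoff, at most 4, or the one with the smallest p. Promoter sequences and gene order come from RefSeq (GRCh38.p14). The alternatives were other moderations, array weights, the methods' t-test, filters on clusters, centring, a replicate block, quantile normalization applied again, leaving out each array, no fold limit and the mean of a gene's clusters.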

Additional observations from a re-analysis of the deposited data

How the results depend on the processing

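Of the 9 members, 0 passed the cutoff under every alternative except leaving out 1 array, where the number was 0 to 1, the 1 being SDC1 without TβRIII-KD 1. The number with an unadjusted p under 0.05 was 2 to 4 when 1 array was left out and 3 with centred arrays or repeated quantile normalization, where GPC6 joined. SDC1, SDC3, GPC1, GPC3, GPC4 and GPC6 kept their sign under every alternative run. Leaving out 1 array turned the sign of SDC2 (log2 fold change -0.198 to 0.041), GPC2 (-0.255 to 0.041) and GPC5 (-0.016 to 0.130), and the mean of its clusters gave GPC2 0.072. TGFBR3 stayed lower, with -0.89 to -0.67 when 1 array was left out. In the methods' t-test, which is not the test the paper names for the arrays, it had -0.79 (adjusted p = 0.198). Over all transcript clusters 172 were higher and 329 lower. These numbers were 1 and 16 in the methods' t-test and 88 to 251 and 215 to 387 when 1 array was left out, and 114 were higher among clusters at or above the median signal and 275 with no fold limit. The cause of these shifts was not tested. Same-numbered arrays had deviations that correlated at -0.06, 0.11 and 0.31, and differently numbered ones at -0.39 to 0.34. These values do not settle whether the numbers pair samples, and the main fit did not pair them. With the replicate block, 229 clusters were higher and 387 lower, TGFBR3 had an adjusted p = 0.0125, and SDC1 one of 0.0488 at a log2 fold change of 0.45, inside the fold limit, while the lists of matrix proteoglycans, shedding enzymes, integrin partners and heparin-binding factors had 2, 1, 2 and 3 genes past the cutoff. The methods' t-test left 0 genes past the cutoff in every pathway list but heparan sulfate editing, where SULF2 stayed, and the filter on signal left SPOCK3 and NDST4 untested. The heparin-binding factors had 2 with an intensity trend, array weights, that filter or clusters of 1 symbol. GPC2 to GPC6 were under the median signal and had no value with that filter. The number of arrays, 3 per group, limits the precision.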
